A study of Mus musculus with 6 samples.

Results

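Laminins are the main glycoproteins of basement membranes, the thin sheets of extracellular matrix under epithelia and around muscle, nerve and fat cells. Each laminin is a cross-shaped trimer of 1 α, 1 β and 1 γ chain, joined in the cell before secretion, and its name follows from the chains it holds. Nidogens bind the γ1 chain and type IV collagen and so bridge the laminin and collagen networks, while integrins and dystroglycan tie laminin to the cell surface. Fibroblasts are known to secrete laminin chains and nidogens as well as the fibrillar collagens.

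The genes described here are the α chains Lama1, Lama2, Lama3, Lama4 and Lama5, the β chains Lamb2 and Lamb3, the γ chain Lamc1 and nidogen 1 (Nid1). They were taken by gene symbol as members of 1 family, with earlier results of these data known. They make up 9 of the 34797 gene names on the array and are read by 13 of its 55681 probes. Lama2 and Lama3 had 2 probes each, Nid1 had 3 and each of the others had 1, and all 13 probes were tested.

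RNA of immortalized murine embryonic fibroblasts (MEF) of 3 kinds was hybridized to 1-colour Agilent mouse arrays, with 2 biological samples and 2 arrays per group and 6 arrays in all. The WT MEF carry the strain label W4, the TIA1 KO MEF lack the RNA-binding protein TIA1 and carry the label BALB/c, and the TIAR KO MEF lack the related protein TIAR and carry the label C57BL/6. None of the 3 groups is labelled with a drug or other treatment. Since each genotype has its own strain and cell line, genotype, strain and line cannot be told apart. All arrays shared a slide, with those of TIA1 KO MEF in a row of their own, so for TIA1 KO MEF slide row and genotype cannot be told apart either. The median spot intensity was 152 and 140 (WT), 458 and 218 (TIA1 KO) and 136 and 119 (TIAR KO). Rated well above background by the scanner software were 23531 and 26254 probes (WT), 16000 and 19920 (TIA1 KO) and 24754 and 25985 (TIAR KO). The SD between the 2 arrays of a group over the 13 probes on the log2 scale was 0.17 (WT), 0.33 (TIA1 KO) and 0.29 (TIAR KO). In these bulk samples, fewer cells that make an RNA and less of it per cell cannot be told apart.

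The probes that carry the results below are short oligonucleotides of 60 bases, and what was measured is the RNA that matches them. Their place in the transcripts was taken from what is known of these RNAs and was not checked against an annotation. By this, the first 3 lie inside the coding part and are given whole. The next 3 lie near the 3′ end and are given by their central 30 bases. All are written 5′ to 3′ as the files give them, with mm9 positions, in lower case, and capitals mark AATAAA, the hexamer that signals polyadenylation. The positions given for the Nid1 junction probe are the outer ends of its span on the genome and not the splice sites.
Lama4, plus strand, chr10:38825794-38825853: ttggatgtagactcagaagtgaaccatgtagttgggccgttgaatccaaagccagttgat
Lamb2, plus strand, chr9:108392189-108392248: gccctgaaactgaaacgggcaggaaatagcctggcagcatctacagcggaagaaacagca
Nid1, junction probe, plus strand, across the splice junction between chr13:13530138 and chr13:13555992: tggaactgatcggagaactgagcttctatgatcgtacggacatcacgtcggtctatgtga
Lamb3, plus strand, chr1:195170009-195170068: cccAATAAAaatctttgaataggagcctgg
Lamc1, minus strand, chr1:155066156-155066215: aatgtgccttcactttagctgtttgcctta
Nid1, brightest probe, plus strand, chr13:13604435-13604494: attggatgattcctcaagtttacagctgta
The Lamb3 probe holds the AATAAA hexamer. Of the 3 Nid1 probes, the junction probe starts at base 269 of the transcript, another at base 4283 and the brightest at base 5938, so together they sample both ends of the RNA. The Lama2 probes start at bases 9364 and 9490 and lie close together. The other probes not shown start at base 9456 of Lama1, 9887 and 10278 of Lama3 and 11327 of Lama5.

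The knocked-out genes were looked at first. The brightest Tia1 probe read 10.72 and 8.54 (WT) against 7.87 and 8.44 (TIA1 KO), so that the log2 fold change was −1.47 ± 0.79 (standard error, 2 arrays per group; limma adjusted p = 0.288). The difference was smaller than the gap between the WT arrays and was not called. The second Tia1 probe read 9.56 and 9.90 (WT) against 7.57 and 8.65 (TIA1 KO), a log2 difference of −1.62 ± 0.42 that was larger than the gap between the WT arrays on this probe and was not called either (limma adjusted p = 0.116). On both of these probes TIA1 KO replicate 1 was not well above background, so 1 of the 2 TIA1 KO arrays measured them. A further probe, at base 225, was not well above background in WT MEF and had 0.87 ± 0.28 (limma adjusted p = 0.149). Of the Tial1 probes, the second fell from 11.71 and 11.09 (WT) to 10.00 and 9.65 (TIAR KO), a log2 difference of −1.58 ± 0.26 (limma adjusted p = 0.0254). On the brightest Tial1 probe a WT spot was marked as an outlier and dropped, and the difference of −2.63 ± 0.87 was not called (limma adjusted p = 0.200).

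Each knockout was compared with WT MEF, which asks which laminin RNAs differ in cells without TIA1 or TIAR. A probe is said to have risen or fallen, and is called, where its Benjamini-Hochberg adjusted p from limma over all 55681 probes was under 0.05 and its fold change was above 2. In TIA1 KO MEF, Lama2 and Nid1 rose and Lamb3 fell. Without TIAR, Lama4, Lamb2, Lamc1 and Nid1 rose and none fell. The WT arrays are shared by both comparisons, so their values are set side by side below and not counted as separate evidence.

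By probe, 3 of the 13 rose and 1 fell in TIA1 KO MEF, where 2.18% of all probes rose and 1.36% fell. For TIAR KO MEF 6 of the 13 rose and none fell, where 3.39% of all probes rose and 2.37% fell. By gene, read from the brightest probe, 2 of 9 rose and 1 fell in TIA1 KO MEF, beside 2.88% and 1.63% of all gene names. For TIAR KO MEF 4 of 9 rose, beside 4.36% of all gene names, and none fell, beside 2.82%. The limma p before adjustment was under 0.05 for 8 of the 13 probes (TIA1 KO) and for 9 (TIAR KO). Over all 55681 probes it was under 0.05 for 15484 (TIA1 KO) and 11247 (TIAR KO). Over the 13 probes the median log2 fold change was 0.57 for TIA1 KO and 0.50 for TIAR KO, while that of all probes was −0.09 and −0.02.

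**Figure D1:**
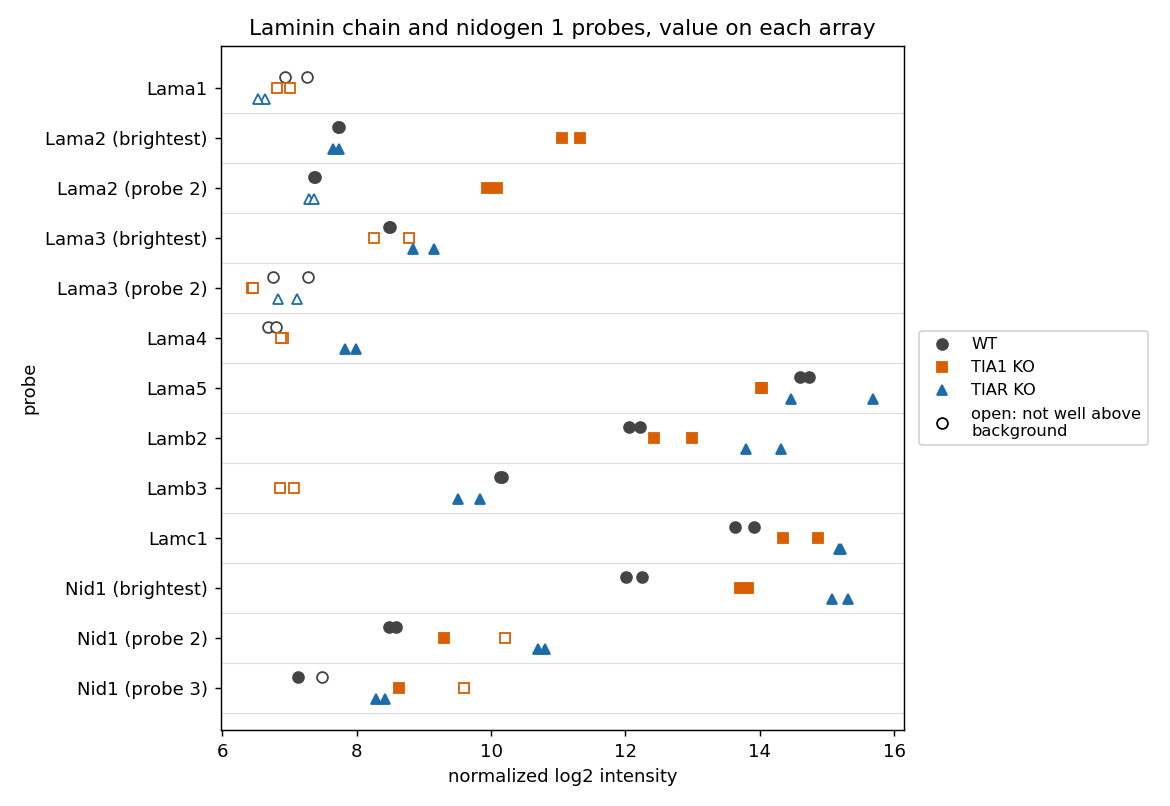
Normalized log2 intensity (horizontal axis) of the 13 laminin chain and nidogen 1 probes on each of the 6 arrays, 1 symbol per array; open symbols were not well above background. The Lama2 probes stand apart in TIA1 KO MEF, at 9.94 to 11.33, Lamb3 drops to 6.86 and 7.07 there, and the brightest Nid1 probe is ordered WT, TIA1 KO, TIAR KO without overlap.

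Among the α chains, Lama2 had the largest change. Lama2 encodes the α2 chain of the laminin of muscle fibres and peripheral nerve, and its loss causes congenital muscular dystrophy. Its brightest probe read 7.72 and 7.74 (WT), 11.06 and 11.33 (TIA1 KO) and 7.65 and 7.74 (TIAR KO), all well above background. The TIA1 KO arrays lay far above the other 4 and the WT and TIAR KO arrays overlapped. Its log2 change was 3.46 ± 0.17 in TIA1 KO MEF, a fold of 11.0 (limma adjusted p = 0.00636). This size depended on the scaling: it was 2.69 and called with array medians made equal. With processed intensities it was 5.07 and not called (limma adjusted p = 0.0529), where limma called no probe on the array. In TIAR KO MEF the log2 change as reported was −0.04 ± 0.14 (limma adjusted p = 0.930). The direct difference between TIAR KO and TIA1 KO MEF was −3.50 ± 0.18 (limma adjusted p = 0.00830).

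The second Lama2 probe read 7.36 and 7.38 (WT), 9.94 and 10.09 (TIA1 KO) and 7.29 and 7.36 (TIAR KO). The scanner software rated it well above background on each TIA1 KO array, on 1 of 2 WT arrays and on no TIAR KO array. It gave the same order, with a log2 fold change of 2.64 ± 0.15 in TIA1 KO MEF (limma adjusted p = 0.00858). Against TIAR KO MEF the level in TIA1 KO MEF was at least 6.45-fold higher (limma adjusted p = 0.00964). Such a lower limit sets each array of the dim group at the lowest of its values that passed this rating, or at what the probe itself read if that was more.

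Lama4 encodes the α4 chain, found in the basement membranes of blood vessels and other mesenchymal tissue. Its probe read 6.68 and 6.80 (WT), 6.90 and 6.88 (TIA1 KO) and 7.99 and 7.83 (TIAR KO). It was well above background on the TIAR KO arrays alone, so its level in the other groups has only an upper bound. It was at least 1.89-fold higher in TIAR KO than in WT MEF, with a measured log2 fold change of 1.17 ± 0.15 (limma adjusted p = 0.0121). Against TIA1 KO MEF it was at least 1.37-fold higher, which was not called (limma adjusted p = 0.0591).

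Lama5 encodes the α5 chain of most adult epithelial and vascular basement membranes. Its probe read 14.59 and 14.73 (WT), 14.01 and 14.03 (TIA1 KO) and 14.47 and 15.69 (TIAR KO). The TIAR KO arrays differed from each other by more than the groups did, and the log2 fold changes of −0.64 ± 0.15 in TIA1 KO MEF (limma adjusted p = 0.106) and 0.42 ± 0.40 in TIAR KO MEF (limma adjusted p = 0.664) were not called. With array medians made equal in place of loess and quantile normalization, Lama5 was called in TIA1 KO MEF, at −2.26 (limma adjusted p = 5.96e-05), where the median of all probes was −0.68. In that setting 4.18% of all gene names rose in TIA1 KO MEF and 30.7% fell.

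Lama3, which encodes the α3 chain of the laminin under skin and other lining epithelia, read 8.49 and 8.50 (WT), 8.78 and 8.26 (TIA1 KO) and 8.83 and 9.15 (TIAR KO) on its brightest probe. In TIA1 KO MEF it was not well above background. Neither knockout was called, with log2 fold changes of 0.03 ± 0.23 (limma adjusted p = 0.936) and 0.50 ± 0.17 (limma adjusted p = 0.177). The other Lama3 probe was not well above background on any array, and Lama1, the α1 chain of early embryonic basement membranes, was not either. Lama1 read 6.93 and 7.26 (WT), 6.81 and 7.01 (TIA1 KO) and 6.64 and 6.53 (TIAR KO).

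Of the β chains, Lamb3 fell in TIA1 KO MEF and Lamb2 rose in TIAR KO MEF. Lamb3 encodes the β3 chain, a chain of the laminin that anchors the epidermis to the dermis. Its probe read 10.13 and 10.16 (WT), 6.86 and 7.07 (TIA1 KO) and 9.83 and 9.50 (TIAR KO). The WT and TIAR KO arrays were well above background and the TIA1 KO arrays were not. Lamb3 was at least 6.04-fold lower in TIA1 KO than in WT MEF (limma adjusted p = 0.00677), with a measured log2 fold change of −3.18 ± 0.16. In TIAR KO MEF the log2 fold change was −0.48 ± 0.17 and not called (limma adjusted p = 0.202). TIAR KO MEF were at least 4.34-fold above TIA1 KO MEF (limma adjusted p = 0.0141).

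Lamb2 encodes the β2 chain of the neuromuscular junction and the kidney filter. It read 12.22 and 12.05 (WT), 12.99 and 12.43 (TIA1 KO) and 14.31 and 13.79 (TIAR KO). The 3 groups lay in that order without overlap, and the difference between TIAR KO and WT MEF was called. The order of WT and TIA1 KO MEF turned with array medians made equal, where Lamb2 in TIA1 KO MEF was −1.03. In that setting 4.18% of all gene names rose in TIA1 KO MEF and 30.7% fell. The log2 fold change of Lamb2 as reported was 1.91 ± 0.22 in TIAR KO MEF, a fold of 3.77 (limma adjusted p = 0.00788). It was 0.57 ± 0.25 in TIA1 KO MEF (limma adjusted p = 0.224), and the direct difference of 1.34 ± 0.30 between the knockouts was not called (limma adjusted p = 0.113).

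Lamc1 encodes γ1, the γ chain of most laminins and the one that binds nidogen. It read 13.91 and 13.63 (WT), 14.34 and 14.86 (TIA1 KO) and 15.17 and 15.20 (TIAR KO), in that order without overlap, although TIA1 KO MEF were the lowest with array medians made equal, at −0.78 relative to WT MEF. In that setting 4.18% of all gene names rose in TIA1 KO MEF and 30.7% fell. Lamc1 rose by 1.41 ± 0.16 on the log2 scale in TIAR KO MEF, a fold of 2.66 (limma adjusted p = 0.00821). The log2 fold change of 0.83 ± 0.25 in TIA1 KO MEF (limma adjusted p = 0.140) and the direct difference of 0.58 ± 0.23 (limma adjusted p = 0.242) were not called.

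Nid1 was the gene of the 9 called in both comparisons. Its brightest probe read 12.24 and 12.01 (WT), 13.82 and 13.70 (TIA1 KO) and 15.07 and 15.31 (TIAR KO). It rose on the log2 scale by 1.63 ± 0.17 in TIA1 KO MEF, a fold of 3.10 (limma adjusted p = 0.0276), and 3.06 ± 0.17 in TIAR KO MEF, a fold of 8.35 (limma adjusted p = 0.000832). The direct difference between the knockouts was 1.43 ± 0.17 (limma adjusted p = 0.0379). The call in TIA1 KO MEF held under 7 of 12 alternatives. Nid1 had 0.01 there with array medians made equal, where 4.18% of all gene names rose and 30.7% fell. It was not called with processed intensities (limma adjusted p = 0.0750), where limma called no probe on the array. Nor was it called with the replicate number as a block (limma adjusted p = 0.0679) or without either WT array.

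The other Nid1 probes differed from it in part. The probe at base 4283 read 8.49 and 8.59 (WT), 10.21 and 9.31 (TIA1 KO) and 10.69 and 10.81 (TIAR KO). It rose in TIAR KO MEF, by 2.21 ± 0.15 on the log2 scale (limma adjusted p = 0.00134), and was not called in TIA1 KO MEF, at 1.22 ± 0.34 (limma adjusted p = 0.129). The junction probe near the 5′ end read 7.49 and 7.12 (WT), 9.59 and 8.64 (TIA1 KO) and 8.29 and 8.43 (TIAR KO), so here TIA1 KO MEF were the highest. It was called in TIAR KO MEF, at 1.06 ± 0.18 (limma adjusted p = 0.0294), and not in TIA1 KO MEF, at 1.81 ± 0.38 (limma adjusted p = 0.0903). The direct difference was −0.75 on this probe (limma adjusted p = 0.300), opposite in sign to the brightest. All 3 probes were above WT MEF on every array of both knockouts, and in TIA1 KO MEF replicate 1 was not well above background on the probes at bases 269 and 4283. Of the WT arrays, 1 of 2 measured the junction probe.

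**Figure D2:**
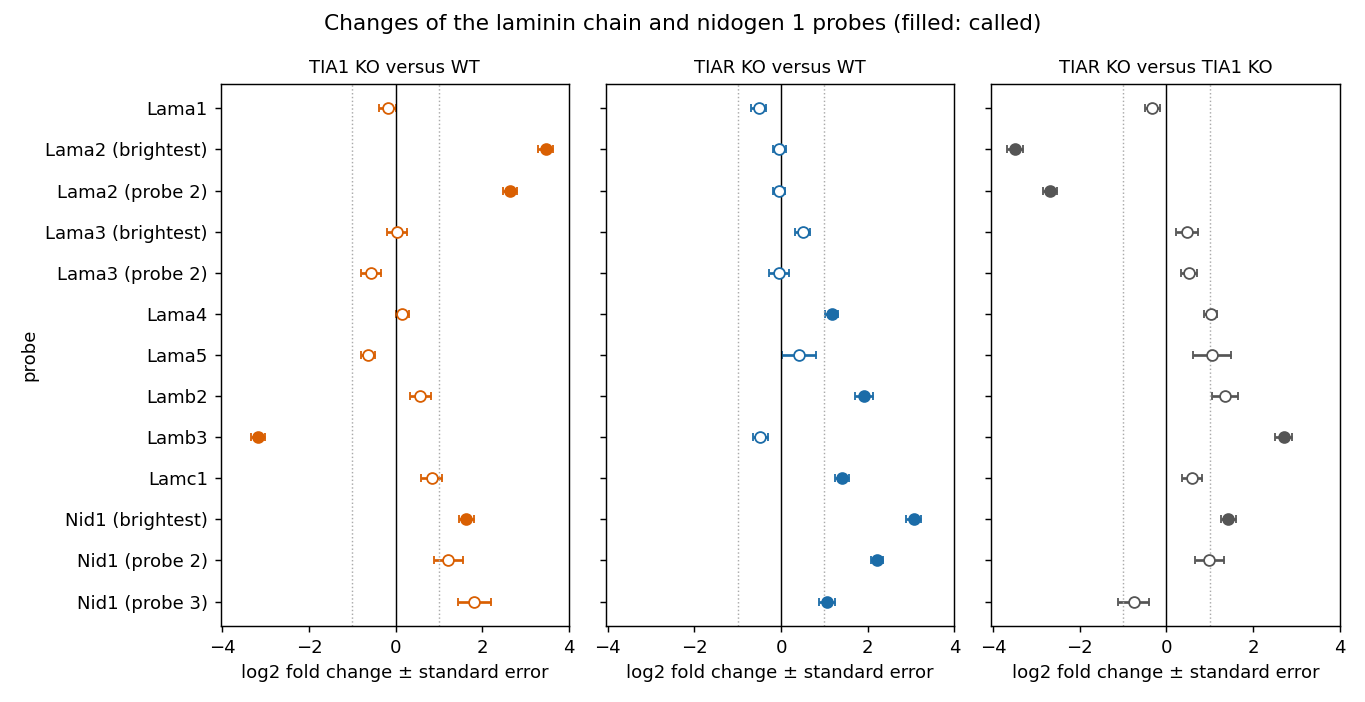
Log2 fold change with its standard error (horizontal axis) of each of the 13 probes in 3 comparisons, from limma with 2 arrays per group; filled points were called and dotted lines mark a fold of 2. Lama2 at 3.46 and Lamb3 at −3.18 are the outermost points for TIA1 KO against WT, and Nid1 at 3.06 for TIAR KO against WT.

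In the direct comparison of the knockouts 2 of the 13 probes were higher and 2 lower in TIAR KO than in TIA1 KO MEF, where 1.72% of all probes rose and 1.63% fell. By gene, Lamb3 and Nid1 were higher and Lama2 was lower, which is 2 and 1 of 9, beside 2.06% and 2.12% of all gene names. These calls held under 8 (Lamb3), 6 (Nid1) and 9 (Lama2) of the 12 alternatives. With the replicate number as a block none of them held (limma adjusted p = 0.0850, 0.140 and 0.0639 in the same order). In that setting limma called no probe on the array between the knockouts. The median over the 13 probes was 0.58, and 0.05 over all probes. Lama4, Lamb2 and Lama5 had log2 differences of 1.02 to 1.34 that were not called (limma adjusted p = 0.0591, 0.113 and 0.257), and that of Lama4 was measured against TIA1 KO arrays not well above background. Of the 12 alternatives, 3 called Lama4, 3 called Lamb2 and 1 called Lama5. With array medians made equal the differences were 2.48 for Lamb2 (limma adjusted p = 1.7e-05), 2.21 for Lama5 (limma adjusted p = 0.000186) and 1.71 for Lamc1 (limma adjusted p = 0.00609), where the median of all probes was 0.63.

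The calls did not all hold when an array or a step of the processing was changed. Without WT replicate 1, and likewise without WT replicate 2, limma called no probe on the array in TIA1 KO MEF. The spread then comes from the TIA1 KO arrays alone and the lone WT array is assumed to vary like them, so the lost calls of Lama2, Lamb3 and Nid1 say nothing particular about these genes. With either of the TIA1 KO arrays left out all 3 genes were called. The spread then comes from the WT arrays alone, and limma called more probes over the whole array than with all arrays kept. With a WT array left out, the log2 fold changes themselves stayed between 3.45 and 3.47 for Lama2, −3.19 and −3.17 for Lamb3 and 1.52 and 1.75 for Nid1. With array medians made equal Lama2 and Lamb3 stayed called in TIA1 KO MEF, at 2.69 and −4.13. With processed intensities they were 5.07 and −3.88 there and not called (limma adjusted p = 0.0529 and 0.0750). In that setting limma called no probe on the array in TIA1 KO MEF, so these lost calls say nothing particular about the 2 genes. In TIAR KO MEF, Nid1 and Lamb2 were called under each of the 12 alternatives, and Lama4 and Lamc1 under 8 of 12. Without either TIAR KO array Lama4 and Lamc1 were not called, with limma adjusted p-values of 0.0503 to 0.0654, nor was Lama4 without WT replicate 1 (limma adjusted p = 0.0575). Between the knockouts limma called no probe on the array without TIAR KO replicate 1 or without replicate 2, where the spread comes from the TIA1 KO arrays alone.

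**Figure D3:**
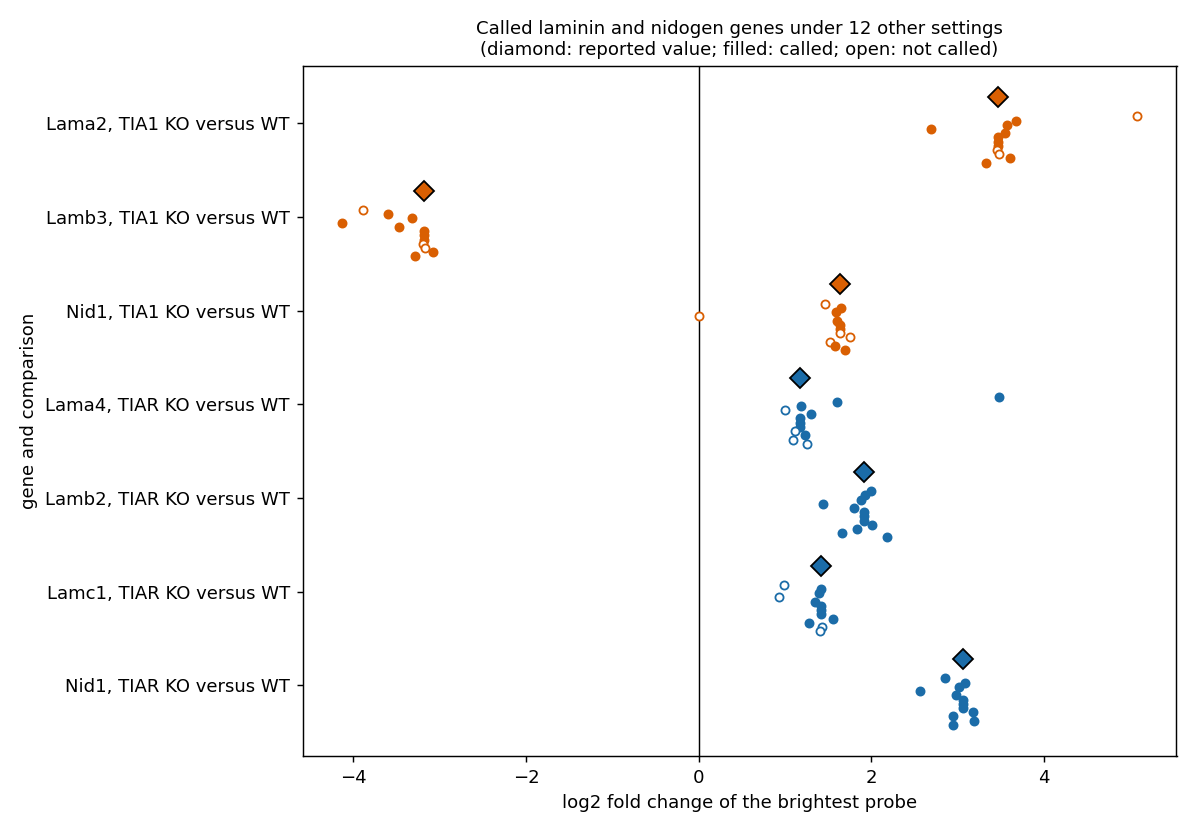
Log2 fold change (horizontal axis) of each called gene as reported (diamond) and under 12 other settings (circles), with filled symbols for calls. Nid1 and Lamb2 in TIAR KO MEF are filled throughout, at 2.57 to 3.18 and 1.44 to 2.18, and Nid1 in TIA1 KO MEF reaches 0.01 at its lowest.

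The authors' own normalized log2 table gave nearly the same values. Lama2 read 7.95 and 8.04 (WT), 11.57 and 11.52 (TIA1 KO) and 7.80 and 7.80 (TIAR KO) there. Nid1 read 12.40 and 12.18, then 13.93 and 13.86, then 15.16 and 15.38 in the same order. Of the 13 probes, 4 were called in TIA1 KO, 5 in TIAR KO and 3 in the direct comparison with limma on this table. The brightest Nid1 probe lost its call between the knockouts there (log2 difference 1.38, limma adjusted p = 0.0554).

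Of the rest of the family, Lamb1, Lamc3 and Nid2 were read by 1 probe each, and of these 3 Nid2 rose in each knockout. Nid2, the other nidogen, read 10.45 and 10.72 (WT), 13.64 and 13.75 (TIA1 KO) and 13.60 and 13.62 (TIAR KO). It rose by 3.11 ± 0.18 (limma adjusted p = 0.00807) and 3.03 ± 0.16 (limma adjusted p = 0.000707) on the log2 scale, by 1.55 in TIA1 KO MEF with array medians made equal. The knockouts differed by −0.08 (limma adjusted p = 0.767). Lamb1, the common β chain, read 15.22 and 15.30, 15.65 and 15.72, and 15.04 and 15.21 in the same order and was not called. Lamc3, another γ chain, read 9.68 and 9.77 (WT), 10.33 and 8.24 (TIA1 KO) and 8.79 and 8.74 (TIAR KO). The TIA1 KO arrays lay on either side of WT MEF, and the log2 fold change of −0.44 ± 0.73 there was not called (limma adjusted p = 0.707). It was 0.61 without TIA1 KO replicate 2, and −1.48 and called without replicate 1, both with the spread of the WT arrays alone. With array medians made equal it was −1.50 and also called. In TIAR KO MEF the Lamc3 difference of −0.96 ± 0.14 passed the p threshold (limma adjusted p = 0.0179) but not the fold. With array medians made equal this difference was −1.28 and called.

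The laminin receptors comprised 8 genes, and the counts of these and the following lists rest on the brightest probe of each gene. In TIA1 KO MEF none rose and 1 fell, and in TIAR KO MEF limma called none, with medians of 0.58 and 0.30, where 1.63% and 2.82% of all gene names fell. With array medians made equal 3 fell in TIA1 KO MEF and 1 without TIAR, but in that setting 30.7% and 6% of all gene names fell. The first count was 1 up and 1 down without TIA1 KO replicate 2, where 11.6% of all gene names rose and 9.38% fell. A p before adjustment under 0.05 was found for 5 and 4 of the 8, beside 15484 and 11247 of all 55681 probes. The one that fell was Bcam, a receptor of the α5 chain, which read 8.42 and 8.32 (WT) and 6.75 and 7.11 (TIA1 KO, on whose arrays it was not well above background). It was at least 1.74-fold lower (limma adjusted p = 0.0447). Between the knockouts, Bcam was higher and the integrin chains Itga6 and Itga7 were lower in TIAR KO MEF, with log2 differences of −1.72 and −3.12 (limma adjusted p = 0.0306 and 0.0318). The Itga6 difference was −0.59 and not called with array medians made equal. For Itga6 the probes did not give the same picture. The brightest, at base 4145, read 14.22 and 14.15 (WT), 15.16 and 14.89 (TIA1 KO) and 13.40 and 13.21 (TIAR KO). The other, at base 383, read 9.55 and 9.18 (WT), 11.97 and 12.09 (TIA1 KO) and 12.79 and 12.34 (TIAR KO). That probe rose by 2.67 ± 0.20 (limma adjusted p = 0.0147) and 3.20 ± 0.23 (limma adjusted p = 0.00171) relative to WT MEF, and its difference of 0.54 between the knockouts was not called (limma adjusted p = 0.248). Of the 4 probes of Rpsa, the dimmest, at base 1340, rose by 3.73 ± 0.45 in TIA1 KO MEF (limma adjusted p = 0.0374) and the other 3 were not called. Itga7, the muscle laminin receptor, read 10.86 and 9.99 (WT), 12.44 and 12.27 (TIA1 KO) and 8.79 and 9.67 (TIAR KO). The other laminin receptor of muscle, Dag1 (dystroglycan), had log2 fold changes of 0.97 in TIA1 KO MEF (limma adjusted p = 0.0657) and 0.43 in TIAR KO MEF, and with arrays scaled to a common median these were −0.62 and −0.02. None of the 9 enzymes that build the laminin-binding sugar of dystroglycan was called in any of the 3 comparisons, with medians of −0.05, −0.14 and −0.01. A limma p before adjustment under 0.05 was found for 3, 5 and 4 of them, beside 15484, 11247 and 12599 of all 55681 probes. The count of 0 called enzymes held for the reported normalization. On arrays with equal medians 4 of the 9 enzymes fell without TIA1 and 1 without TIAR, beside those 30.7% and 6% of all gene names, and 2 were higher in TIAR KO than in TIA1 KO MEF, beside 16.3%. Without TIA1 KO replicate 2, 1 fell in TIA1 KO MEF, beside 9.38%, and 1 was higher in the direct comparison, beside 9.35%.

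Of 11 other basement membrane genes, 2 rose and 1 fell in TIA1 KO MEF and 4 rose in TIAR KO MEF, with medians of 0.36 and 0.27, beside rises of 2.88% and 4.36% of all gene names. On arrays with equal medians the counts were 3 up and 4 down without TIA1 and 3 up and 1 down without TIAR, where 4.18% of all gene names rose and 30.7% fell without TIA1 and 3.24% and 6% without TIAR. For the former they were 4 and 2 without TIA1 KO replicate 2, beside 11.6% and 9.38%. The type IV collagen chains Col4a1 and Col4a2 had the largest changes. Col4a1 read 7.35 and 7.06 (WT), 14.66 and 14.78 (TIA1 KO) and 14.20 and 14.14 (TIAR KO), log2 fold changes of 7.51 ± 0.18 (limma adjusted p = 0.00362) and 6.97 ± 0.16 (limma adjusted p = 0.000176). Col4a2 rose by 6.48 and 5.11. Col4a5 rose in TIAR KO MEF, by 2.53 (limma adjusted p = 0.00127), and had −0.03 in TIA1 KO MEF, where it was −1.60 and called with array medians made equal. Sparc, a collagen-binding matrix protein, rose by 1.10 in TIAR KO MEF (limma adjusted p = 0.0115) and had 1.03 in TIA1 KO MEF, which was not called (limma adjusted p = 0.0545). With arrays scaled to a common median these were 0.80 and −0.45. The Sparc call in TIAR KO MEF was lost there, with processed intensities, and when WT replicate 2 or either of the TIAR KO arrays was left out. Of the Col4a6 probes, the one at base 6544 was at least 4.17-fold higher in TIAR KO than in WT MEF (limma adjusted p = 0.00297), while the brightest had a log2 fold change of −0.19. Col18a1, a collagen of basement membranes, fell by 3.83 in TIA1 KO MEF (limma adjusted p = 0.0155), where TIA1 KO replicate 1 was not well above background.

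Of 5 proteases that cut laminin chains or activate the enzymes that do, 2 rose and 1 fell in TIA1 KO MEF and 3 rose and 1 fell in TIAR KO MEF, with medians of 1.12 and 1.18, beside 2.88% and 1.63% of all gene names for TIA1 KO and 4.36% and 2.82% for TIAR KO. Plau, the urokinase plasminogen activator, read 8.15 and 8.08 (WT), 11.05 and 11.35 (TIA1 KO) and 9.31 and 9.27 (TIAR KO), and rose by 3.09 (limma adjusted p = 0.00840) and 1.18 (limma adjusted p = 0.00902). The latter was not called with processed intensities (limma adjusted p = 0.0787) or without either TIAR KO array (limma adjusted p = 0.0531 and 0.0529). Mmp14, a membrane-bound metalloprotease, rose by 1.89 (limma adjusted p = 0.0190) and 2.24 (limma adjusted p = 0.00136), and with array medians made equal the former was 0.38 and not called. Mmp2, the gelatinase that Mmp14 activates, fell from 11.82 and 11.99 (WT) to 7.56 and 8.21 (TIA1 KO) and 7.86 and 8.05 (TIAR KO). It was at least 13.8-fold lower in TIA1 KO than in WT MEF (limma adjusted p = 0.0119). Plat, the tissue plasminogen activator, rose by 1.53 in TIAR KO MEF (limma adjusted p = 0.00608), and with processed intensities it was 1.35 and not called. The brightest Bmp1 probe, with 0.88 in TIAR KO MEF, was not called, and the other 2 probes of this procollagen protease rose there, by 1.90 and 1.07 (limma adjusted p = 0.0106 and 0.0147). As for the 9 genes, none of these partner genes was called in TIA1 KO MEF without WT replicate 1 or without WT replicate 2, nor with processed intensities. With processed intensities, too, limma called no probe on the array in this comparison.

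**Figure D4:**
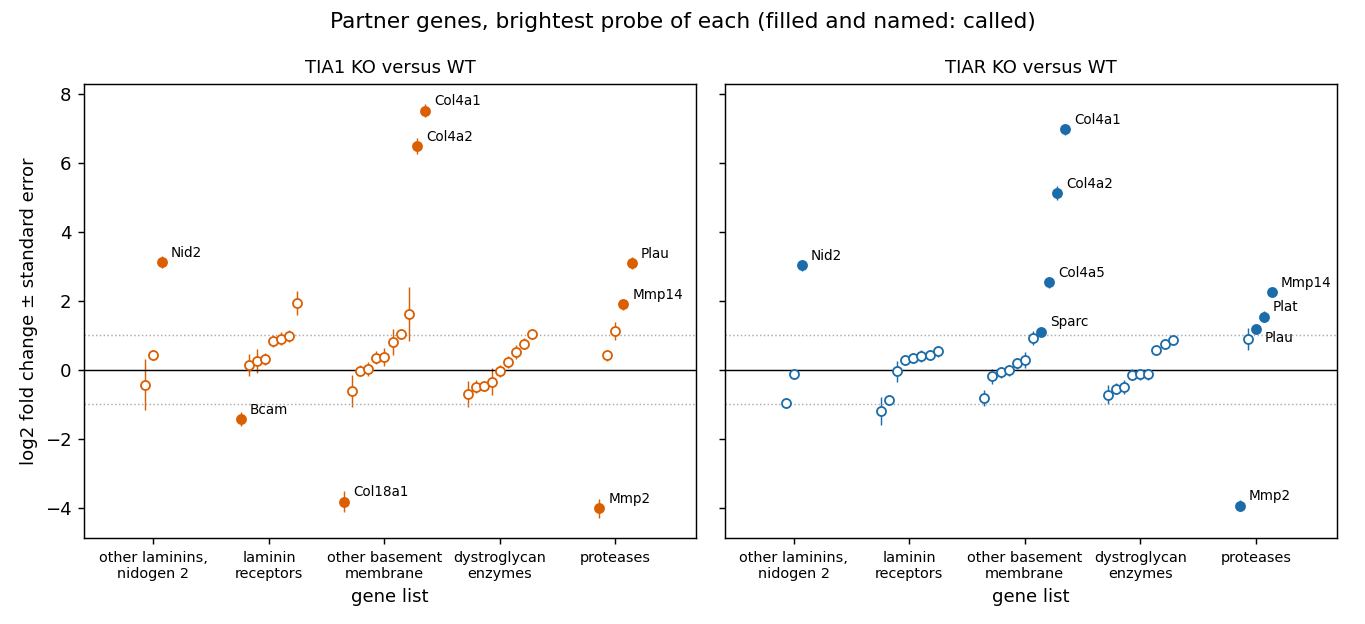
Log2 fold change with its standard error (vertical axis) of the brightest probe of each partner gene reported here, by list, in both knockouts relative to WT MEF, from limma with 2 arrays per group; filled points were called and are named. Col4a1 is the highest point in both panels, at 7.51 and 6.97, and the dystroglycan enzymes are all open.

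The labelled cell type was checked against its markers. Of 8 fibroblast markers, 6 rose without TIA1 (4 with array medians made equal) and 7 without TIAR, with medians of 2.62 and 3.11. Of all gene names, as for each of the marker lists that follow, 2.88% rose without TIA1 and 4.36% without TIAR. By the mean log2 reading over the 6 arrays, which is what brightest means for each list here, Vim led the list, while in both knockouts Col1a2 read higher. The summed linear intensity of the 8 was 322000 and 303584 (WT), 1083980 and 1042200 (TIA1 KO) and 1039120 and 1024060 (TIAR KO). Pdgfra, a receptor typical of fibroblasts, was not well above background in WT MEF and read 10.05 and 10.23 (TIA1 KO) and 11.68 and 11.51 (TIAR KO). Thy1, a surface marker of fibroblasts, read 6.63 and 6.98 (WT), 7.11 and 7.48 (TIA1 KO) and 14.84 and 14.74 (TIAR KO). Col3a1 rose by 6.32 and 6.60. The WT line therefore had Pdgfra at background and Thy1 well above it on 1 of 2 arrays, and in TIA1 KO MEF Thy1 was not well above background on either array.

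Markers of other cell types moved beside the laminins as well. Of 4 smooth muscle markers 2 rose without TIA1 and 3 without TIAR, led by Acta2 at 4.85 and 5.54, while Myh11 was near background on all arrays. The summed linear intensity of these 4 was 15662 and 20158 (WT), 267225 and 295879 (TIA1 KO) and 476387 and 422150 (TIAR KO). Of 4 parietal endoderm markers, a lineage that makes much laminin, Gata4 and Gata6 rose in both knockouts (Gata6 by 3.07 and 5.29). Gata4 was not well above background in WT MEF and was at least 12-fold (limma adjusted p = 0.00862) and 14-fold (limma adjusted p = 0.00046) higher in TIA1 KO and TIAR KO MEF. The summed linear intensity of these 4 markers was 639 and 525 (WT), 3172 and 3580 (TIA1 KO) and 9047 and 9074 (TIAR KO), with Gata6 the brightest, and Sox17 and Thbd were not called. Sox17 and Thbd were each well above background on 1 of 6 arrays. With array medians made equal Sox17 rose and Thbd fell in TIA1 KO MEF, and Sox17 rose there without TIA1 KO replicate 2. Of 4 skeletal muscle markers Acta1 rose in TIA1 KO MEF, and Acta1 and Des rose in TIAR KO MEF, while Myod1 and Myog were near background on all arrays. The Des call was lost without WT replicate 1 and without TIAR KO replicate 1. The skeletal muscle list summed to 631 and 618 (WT), 1939 and 1729 (TIA1 KO) and 4102 and 3063 (TIAR KO), with Acta1 the brightest.

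Of 6 epithelial markers, Krt8, the brightest though Krt18 read higher in TIAR KO MEF, rose in TIA1 KO MEF by 1.23 (limma adjusted p = 0.0444), and Cdh1, Krt8 and Krt18 rose in TIAR KO MEF. With array medians made equal Krt8 had 0.40 in TIA1 KO MEF and was not called, nor was it without loess, on the authors' table or on its other probe. The 6 epithelial markers summed to 1176 and 1080 (WT), 1297 and 1615 (TIA1 KO) and 2543 and 2508 (TIAR KO). Of 3 leukocyte markers Itgam, the brightest, rose in TIA1 KO MEF by 1.82 (limma adjusted p = 0.0415) and Ptprc was near background on all arrays. Itgam had 0.24 with array medians made equal, was not called then nor without loess, without TIA1 KO replicate 1 or on the authors' table, and its other 2 probes, at −0.53 and −0.78, were not called. That list summed to 5980 and 4076 (WT), 14157 and 12040 (TIA1 KO) and 7135 and 6986 (TIAR KO). None of 5 endothelial markers, with Cdh5 and Tie1 near background on all arrays, was called by limma on its brightest probe in either knockout, while 1 of them in each had a p before adjustment under 0.05. Of all 55681 probes, 15484 (TIA1 KO) and 11247 (TIAR KO) had such a p. The second Kdr probe was at least 2.33-fold higher in TIAR KO MEF than in WT MEF, where it was not well above background (limma adjusted p = 0.00708), and with array medians made equal 1 endothelial marker fell in TIA1 KO MEF. The endothelial list, with Kdr the brightest, summed to between 2922 and 3862 on the 6 arrays. The part of the rising markers in the laminin results was not tested.

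The genes whose pattern over the 6 arrays was most like that of Lama2 were found by Pearson's r among 11963 candidate genes. They were Hoxa11 (r = 0.9997), Tmem45a (r = 0.9996) and Klra22 (r = 0.9995), all higher in TIA1 KO MEF. Hoxa11 and Klra22 were not well above background in WT MEF and were at least 19.6-fold and 59.6-fold higher (limma adjusted p = 0.00517 and 0.00418), and Tmem45a, measured on 1 of 2 WT arrays, rose by 6.59 on the log2 scale (limma adjusted p = 0.00369). With 2 arrays in each of 3 groups a high r says little more than that TIA1 KO MEF stand apart, and 85 candidates had an r above 0.99.

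Promoter windows of 5 of the 9 genes were read from RefSeq (GRCm38.p6). The 250 bases before the start of Lama2 and of Nid1 are shown, since both genes rose in TIA1 KO MEF and only Nid1 rose in TIAR KO MEF. They were searched on both strands for GGGCGG (the GC box), TATAAA (the TATA box), CCAAT and TGANTCA (the AP-1 site), and capitals mark a match.
Lama2, minus strand, chr10:27616943-27617192: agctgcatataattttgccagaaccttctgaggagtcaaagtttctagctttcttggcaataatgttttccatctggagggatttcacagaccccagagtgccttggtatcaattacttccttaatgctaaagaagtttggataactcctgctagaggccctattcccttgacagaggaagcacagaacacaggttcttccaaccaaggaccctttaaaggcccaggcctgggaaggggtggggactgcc
Nid1, plus strand, chr13:13437352-13437601: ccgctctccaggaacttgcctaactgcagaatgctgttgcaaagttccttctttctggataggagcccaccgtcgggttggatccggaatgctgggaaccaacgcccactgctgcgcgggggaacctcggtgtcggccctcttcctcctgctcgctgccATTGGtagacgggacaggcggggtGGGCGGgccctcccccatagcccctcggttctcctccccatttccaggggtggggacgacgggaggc
The Nid1 window held 1 GGGCGG and 1 CCAAT, the latter on the other strand, and had a GC content of 64.4%. None of these letters was found in the Lama2 window, whose GC content was 47.2%, beside a median of 52.4% over all windows. Of 32851 windows of this length, 32.7% held GGGCGG, 33.8% CCAAT, 12.4% TATAAA and 6.75% TGANTCA. A match is a description of these letters and not a measured binding site.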

How the data were processed

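Total RNA was labelled with Cy3 and hybridized to Agilent SurePrint arrays. For each array the authors deposited the scanner software's mean intensity and local background of each spot, with mm9 probe positions, not normalized between arrays. Their own normalized log2 values, also deposited, fill a table whose spots match the scanner files by feature number (r between 0.997 and 0.999 per array). Its scale and centring are the authors' and the steps are known only from the methods, so values were computed here from the scanner files, with the table as an alternative.

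Normexp background correction (offset 50) and log2 were followed by loess (1 pass, each array against the array mean) and quantile normalization. Control and outlier spots were left out and spots of a probe averaged. Well above background means that the software rated 50% or more of a probe's spots on that array so. No probe was filtered.

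Limma (lmFit, eBayes) was run for each comparison on the arrays of the 2 groups, with no covariate, and probes were called at the thresholds of the methods, an adjusted p under 0.05 and a fold above 2. Every probe of the 9 genes is named. Of each partner list, all genes were counted and up to 4 of the largest called changes named, with some uncalled members beside them. The members, lists and tests were chosen with earlier results of these data known. Some family members, markers and sequences are not reported here. Fits were checked on simulated data. The alternatives were processed intensities scaled to the 75th percentile, an offset of 16, no loess, a common median, a background filter, all groups in 1 fit, a replicate block, the authors' table and leaving out each array. The precision is limited by 2 arrays per group. R 4.3.3 with limma 3.58.1 and, for figures, matplotlib were used.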

Additional observations from a re-analysis of the deposited data

Results flagged for a closer look

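Of the 9 genes, 3 differed between the knockouts by the limma fit of TIAR KO against TIA1 KO MEF. With the replicate number as a block limma called none of them, nor any other probe on the array. Lama2 was lower in TIAR KO MEF on both of its probes, by log2 differences of −3.50 ± 0.18 at base 9364 (adjusted p = 0.00830) and −2.69 ± 0.16 at base 9490 (adjusted p = 0.00964). Lamb3 was higher in TIAR KO MEF, by 2.70 ± 0.20 (adjusted p = 0.0141), against TIA1 KO arrays that were not well above background. The brightest Nid1 probe was higher in TIAR KO MEF by 1.43 ± 0.17 (adjusted p = 0.0379), while the junction probe of the same gene differed by −0.75. The call of the brightest Nid1 probe held under 6 of 12 alternatives, that of Lamb3 under 8 and that of Lama2 at base 9364 under 9. With 2 arrays per group no array could be tested as an outlier.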

How the results depend on the processing

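Of 320 values of the 9 genes under the alternatives, 266 kept their direction and their side of the thresholds, 32 lost a call, 9 gained one and 13 changed sign, none of which had been called. The number of called probes in TIA1 KO MEF, 4 as reported, was 0 with processed intensities and between 0 and 6 without 1 array. In TIAR KO MEF it was 6 as reported, 3 with a common array median and between 3 and 5 without 1 array. Between the knockouts it was 4 as reported, 2 with processed intensities, 8 with a common median, 0 with the replicate block and between 0 and 6 without 1 array. The correlations between the replicate differences were 0.08, 0.03 and −0.07, which does not settle whether the replicate numbers pair the samples. The block gave 3 and 6 calls against WT.

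Sign changes in TIA1 KO against WT were Lama3 at −0.21 with processed intensities, −0.22 without loess, −0.51 with a common median, −0.23 on the authors' table and between −0.23 and 0.29 without 1 array; Lama1 at 1.65 with processed intensities; and Lama4 at −0.14, Lamb2 at −1.03 and Lamc1 at −0.78 with a common median. In TIAR KO against WT they were Lama5 at −0.055 with a common median and between −0.19 (without TIAR KO replicate 2) and 1.02 without 1 array, and Lama2 between −0.086 and 0.011 without 1 array. Between the knockouts it was Lama1, at 0.18 with a common median. With processed intensities the median of all probes moved to 1.98 in TIA1 KO MEF and −1.85 between the knockouts, with a common median to −0.68 and 0.63. Limma called no probe on the array with processed intensities in TIA1 KO MEF, nor with the replicate block between the knockouts. Over all probes, called counts against WT in TIA1 KO MEF ran from 0 to 16041 and those in TIAR KO MEF from 2307 to 4179, beside 1969 and 3206 as reported, and between the knockouts from 0 to 10086 beside 1866. The share of calls that rose in TIA1 KO MEF was 61.6% as reported and 11.6% with a common median, and in TIAR KO MEF 58.8% and 33.6%. Between the knockouts it was 51.3% as reported, 8.28% with processed intensities and 87.1% with a common median. The causes were not tested.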
